A study of Homo sapiens with 3 samples.

Results

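Secretory granule, synaptic release and neuronal genes were followed in NCI-H209, a permanent cell line grown from a human small cell lung cancer with neuroendocrine features. The set was a list of 48 genes with these functions, out of 60609 in the count tables, chosen with earlier results of these data known. Each was matched to its Ensembl gene by symbol. Every library came from cells carrying a doxycycline-inducible lentiviral hairpin and given doxycycline at 1 µg/mL every 2 days. The library sh1362 carried a hairpin against YES1, a Src-family tyrosine kinase, sh490 carried another hairpin against YES1, and shGFP carried a hairpin against GFP, which human cells lack, as the control. There was 1 library of each, with 7421552 counted reads in sh1362, 7791747 in sh490 and 4899006 in shGFP. The sources used here give neither the time from induction to harvest nor the hairpin sequences. Nor do they say whether the libraries came from separate cultures, so any p-value reflects the spread among these libraries, which may be technical.

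Neuroendocrine cells package prohormones and amines into dense-core granules and release them when calcium enters, using much of the machinery that neurons use at synapses. Granins condense in the maturing granule together with prohormones, which prohormone convertases, carboxypeptidase E and an amidating enzyme then cut and finish. Rab GTPases, priming factors and SNARE proteins bring the granule to the plasma membrane, and synaptotagmins sense calcium. In the lung, chromogranin A and synaptophysin are stained to recognise neuroendocrine tumours.

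The start-site regions of the genes were read to see which members share the cyclic AMP response element, TGACGTCA, a binding sequence of CREB-family factors long studied in granin genes. RefSeq promoter windows on GRCh38.p14, running from 250 bases before to 50 bases after an annotated start, were matched for 37 of the 48 members and searched on both strands. The element was in the windows of CHGA, PCSK1, SLC18A2 and SYN1, 4 of the 37 (10.8%), against 2.25% of all 27305 genes with a window. A gene counted if any of its windows matched. The 37 members had 58 windows and all genes had 35116, more per gene for the members, so shares per gene are not strictly alike. These windows are printed 5′ to 3′ on the strand of the gene, with CPE added, which holds 2 copies of the shorter core TGACGT. CPE was picked with the values known. Capitals mark the element or its core, and in SYN1 also the core of the RE1 element bound by the repressor REST.
CHGA (chr14:92922900-92923199, plus strand): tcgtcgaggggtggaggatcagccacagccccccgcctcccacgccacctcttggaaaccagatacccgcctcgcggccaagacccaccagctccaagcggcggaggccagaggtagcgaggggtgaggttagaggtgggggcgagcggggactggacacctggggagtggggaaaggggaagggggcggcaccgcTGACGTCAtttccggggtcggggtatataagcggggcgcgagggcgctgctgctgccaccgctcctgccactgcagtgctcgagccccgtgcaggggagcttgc
PCSK1 (chr5:96433199-96433498, minus strand): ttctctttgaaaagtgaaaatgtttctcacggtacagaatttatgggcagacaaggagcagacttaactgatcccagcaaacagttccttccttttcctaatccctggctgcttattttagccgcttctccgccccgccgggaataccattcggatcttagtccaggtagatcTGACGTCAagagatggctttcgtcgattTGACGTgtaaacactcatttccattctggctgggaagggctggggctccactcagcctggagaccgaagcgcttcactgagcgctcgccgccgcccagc
SLC18A2 (chr10:117240864-117241163, plus strand): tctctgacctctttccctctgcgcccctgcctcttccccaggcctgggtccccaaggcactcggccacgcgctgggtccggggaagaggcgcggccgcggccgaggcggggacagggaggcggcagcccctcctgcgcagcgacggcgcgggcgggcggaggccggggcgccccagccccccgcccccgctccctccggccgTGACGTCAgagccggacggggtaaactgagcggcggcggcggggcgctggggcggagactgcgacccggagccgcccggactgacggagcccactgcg
SYN1 (chrX:47619808-47620107, minus strand): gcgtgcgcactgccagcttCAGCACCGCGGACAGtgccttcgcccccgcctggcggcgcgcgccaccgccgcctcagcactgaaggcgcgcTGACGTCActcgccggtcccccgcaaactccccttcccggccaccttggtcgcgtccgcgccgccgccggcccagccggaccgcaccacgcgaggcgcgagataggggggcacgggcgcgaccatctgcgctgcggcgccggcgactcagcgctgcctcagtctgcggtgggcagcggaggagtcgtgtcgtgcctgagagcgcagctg
CPE (chr4:165378758-165379057, plus strand): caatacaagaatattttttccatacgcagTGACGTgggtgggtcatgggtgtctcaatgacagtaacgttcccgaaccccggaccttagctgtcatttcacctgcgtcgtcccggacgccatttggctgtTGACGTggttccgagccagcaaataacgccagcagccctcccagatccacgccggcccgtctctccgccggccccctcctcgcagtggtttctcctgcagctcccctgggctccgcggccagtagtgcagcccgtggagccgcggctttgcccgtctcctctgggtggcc
The element began 54 bases before the start in CHGA, 77 in PCSK1, 48 in SLC18A2 and 159 in SYN1. PCSK1 had a further core 49 bases before its start, and the cores of CPE began 221 and 120 bases before its own. The core TGACGT, which the full element contains, was in 9 of the 37 members (24.3%) and in 9.64% of all genes. Like CPE, PCSK2, RAB27A, RAB3A and UNC13A had the core without the full element. Their windows are not printed, and copies of the core in them were not counted. The RE1 core was in SYN1 alone among the members, 231 bases before the start, and in 0.0586% of all genes. The E-boxes CAGCTG and CAGATG, bound by basic helix-loop-helix factors, were in 10 (27%) and 7 (18.9%) of the members and in 21.1% and 17.5% of all genes. A match describes letters in a window and shows no binding, and the motifs were chosen after the values were seen.

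The labelled cell type and the targeted gene were checked first. Each of the 14 genes listed as small cell markers had 10 counts or more in every library. They include the epithelial genes EPCAM and CEACAM5, and the members CHGA, SYP and UCHL1, which give no separate check of the set. This bar was low, and the like share of all genes was not computed. YES1 had 216 counts in sh1362 and 163 counts in sh490, against 1465 counts in shGFP, with a log2 fold of -3.58 ± 0.30 (standard error) and an adjusted p of 0.00755 in edgeR's quasi-likelihood test of both hairpin libraries against shGFP. Red cell markers stood apart in shGFP. Over 15 genes they summed to 58.3 CPM (counts scaled to library size) in sh1362 and 52.8 CPM in sh490, against 749 CPM in shGFP, of which HBB gave 639 CPM, while GYPB, CA1, HBG1, EPB42 and AHSP had no count in any library. The 16 white cell markers summed to 16.5 CPM in sh1362 and 17.9 CPM in sh490, against 26.8 CPM in shGFP, with CD2, CD3E, CD3D and ITGAM at 0 throughout. Most of this sum was CORO1A, with 12.4 CPM in sh1362 and 15.3 CPM in sh490, against 16.4 CPM in shGFP. S100A9 had 0 CPM in sh1362 and 0.127 CPM in sh490, against 4.09 CPM in shGFP. The 10 fibroblast markers summed to 7.49 to 11.4 CPM, with FAP, DCN and POSTN at 0, and the 8 endothelial markers to 8.72 CPM in sh1362 and 16.9 CPM in sh490, against 23.1 CPM in shGFP, with EMCN and TEK at 0. Among the endothelial markers, KDR had 3.27 CPM in sh1362 and 10.3 CPM in sh490, against 16.4 CPM in shGFP. ERG was instead highest in sh490, and PECAM1 was about equal in sh1362 and shGFP. Mitochondrial transcripts took 7.78% of the counts in sh1362 and 5.50% in sh490, against 5.47% in shGFP. Leaving globin and mitochondrial genes out of the scaling kept the members' median log2 folds within 0.01, and the part of other cells' RNA in the differences below was not tested. In bulk libraries, fewer cells expressing a gene and less RNA per cell cannot be told apart.

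Most granule and release genes were well expressed in the line, but a few textbook members were close to silent. By TPM, which allow for exon length, 20 of the 48 averaged 100 or more over the libraries, 16 lay between 10 and 100 and 12 lay under 10. Together the members took 1.82% of all counts in sh1362 and 1.27% in sh490, against 1.75% in shGFP. The convertase gene PCSK1 alone took 0.722% in sh1362 and 0.418% in sh490, against 0.762% in shGFP. Both shares were lowest in sh490.

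**Figure D1:**
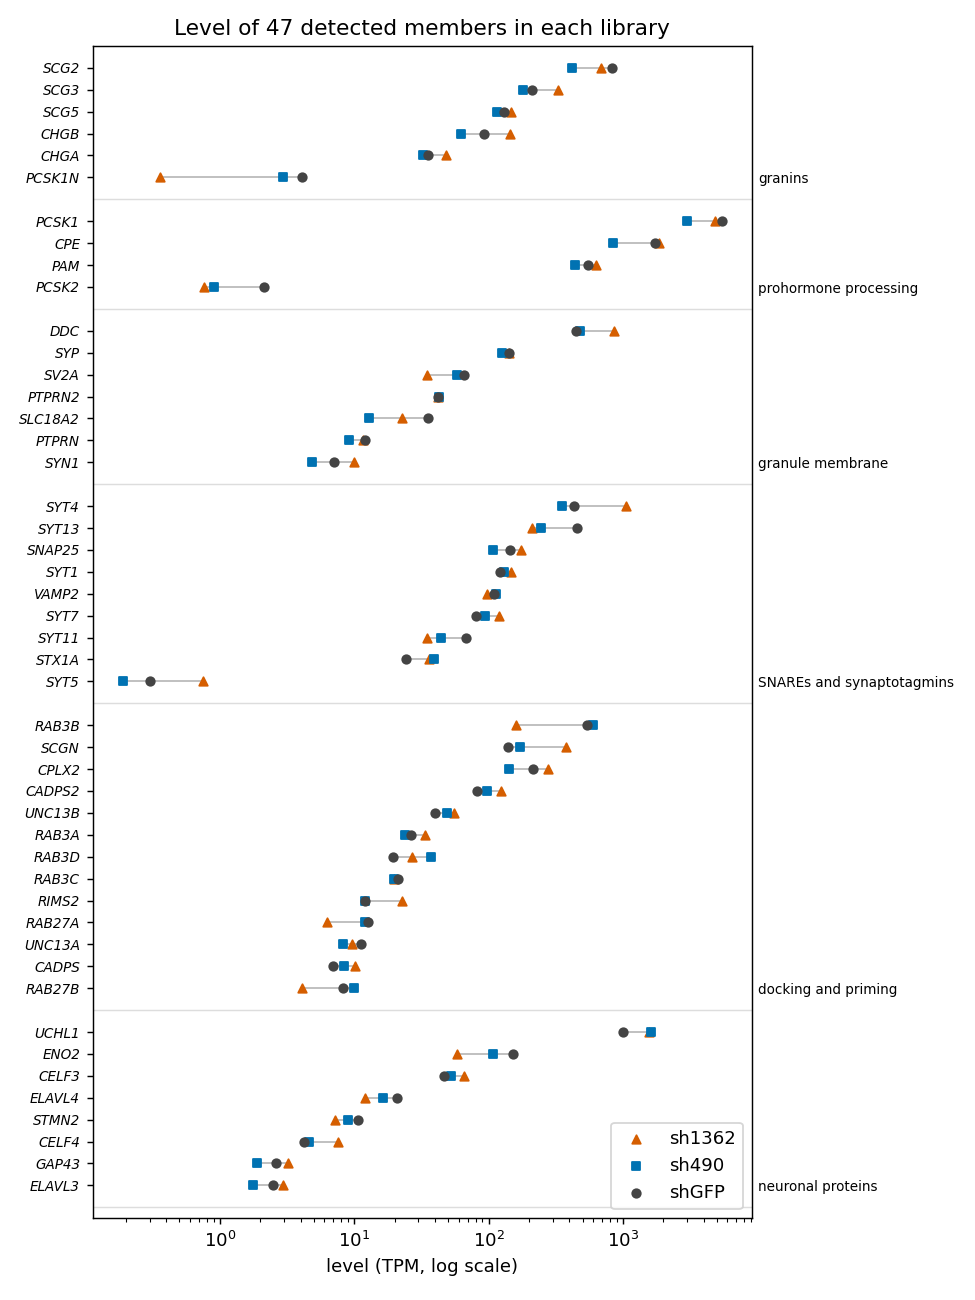
Level of each detected member in TPM on a log axis, grouped by role, with 1 point per library (sh1362, sh490 and shGFP) and a grey line over their range. PCSK1 lies at the top, with 4824 TPM in sh1362 and 2981 TPM in sh490, against 5448 TPM in shGFP; GAP43, PCSK1N, ELAVL3, PCSK2 and SYT5 lie lowest, and SLC18A1, which had no count, is not drawn.

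In the order of mean TPM, PCSK1 came first at 4418, the 16th highest of all genes, followed by CPE at 1471 and UCHL1 at 1393. SCG2, SYT4, DDC, PAM, RAB3B, SYT13, SCG3, SCGN and CPLX2 completed the first 12, from 643 down to 211 TPM. Of the 47 neighbouring pairs in the whole order, 40 had ranges over the 3 libraries that overlapped, so most neighbours did not differ beyond their spread. PCSK1 stood clear of CPE, UCHL1 of SCG2, SCG5 of VAMP2 and SYT7 of CELF3. Lower down, CELF4 stood clear of GAP43, PCSK2 of SYT5 and SYT5 of SLC18A1.

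None of the members differed between the YES1 hairpins and shGFP past the test. Of the 48, 46 passed edgeR's filter on low counts. At an adjusted p under 0.05 (edgeR, Benjamini-Hochberg), 0 members were above shGFP and 0 below it, where 0% and 0.0255% of the 15708 genes tested were called higher and lower, and the lowest adjusted p of any member was 0.985. The genes called were YES1 and the globin genes HBB, HBA1 and HBA2, all lower. At an unadjusted p under 0.05, edgeR gave 4 members, where 4.35% of all genes passed, namely UCHL1 above shGFP and SYT13, SYT11 and ENO2 below it. DESeq2 also called 0 members and had 1 at an unadjusted p under 0.05, and limma-voom called 0 and had 5. The shares of all genes passing with DESeq2 and limma-voom are not given here, so these counts have no comparison. The test had 1 residual degree of freedom, from the spread between the hairpins, with the lone shGFP library assumed to vary like them. The median edgeR log2 fold was 0.03 over the members and 0.04 over all genes. Without sh490 the members' median was 0.32, and without sh1362 it was -0.20, both values with no test.

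Each hairpin library was then set against shGFP by size, with no replicate check, among the 42 members with a mean of 5 CPM or more. Both comparisons share the shGFP library. Ratios below carry exact 95% intervals of a ratio of counts, which cover counting error only, since the reads have no molecular identifiers and each library is a single sample. In sh1362, 6 of the 42 members (14.3%) lay at least 2-fold from shGFP, where 9.16% of all 11635 genes did. SCGN, SYT4, DDC and RIMS2 were the 4 higher members (9.52%) and RAB3B and ENO2 the 2 lower ones (4.76%), where 3.56% and 5.6% of all genes were higher and lower. SYT13, at a log2 fold of -0.999, fell just short of 2-fold. In sh490, 3 members (7.14%) lay at least 2-fold from shGFP, where 2.8% of all genes did. These were SLC18A2, CPE and SCG2 (-0.987 with scaling by library totals, short of 2-fold), all lower, with 0 higher, where 1.31% and 1.5% of all genes were lower and higher. The members' median log2 fold was 0.34 in sh1362, beside 0.01 over all genes, and -0.16 in sh490, beside 0.02 over all genes.

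**Figure D2:**
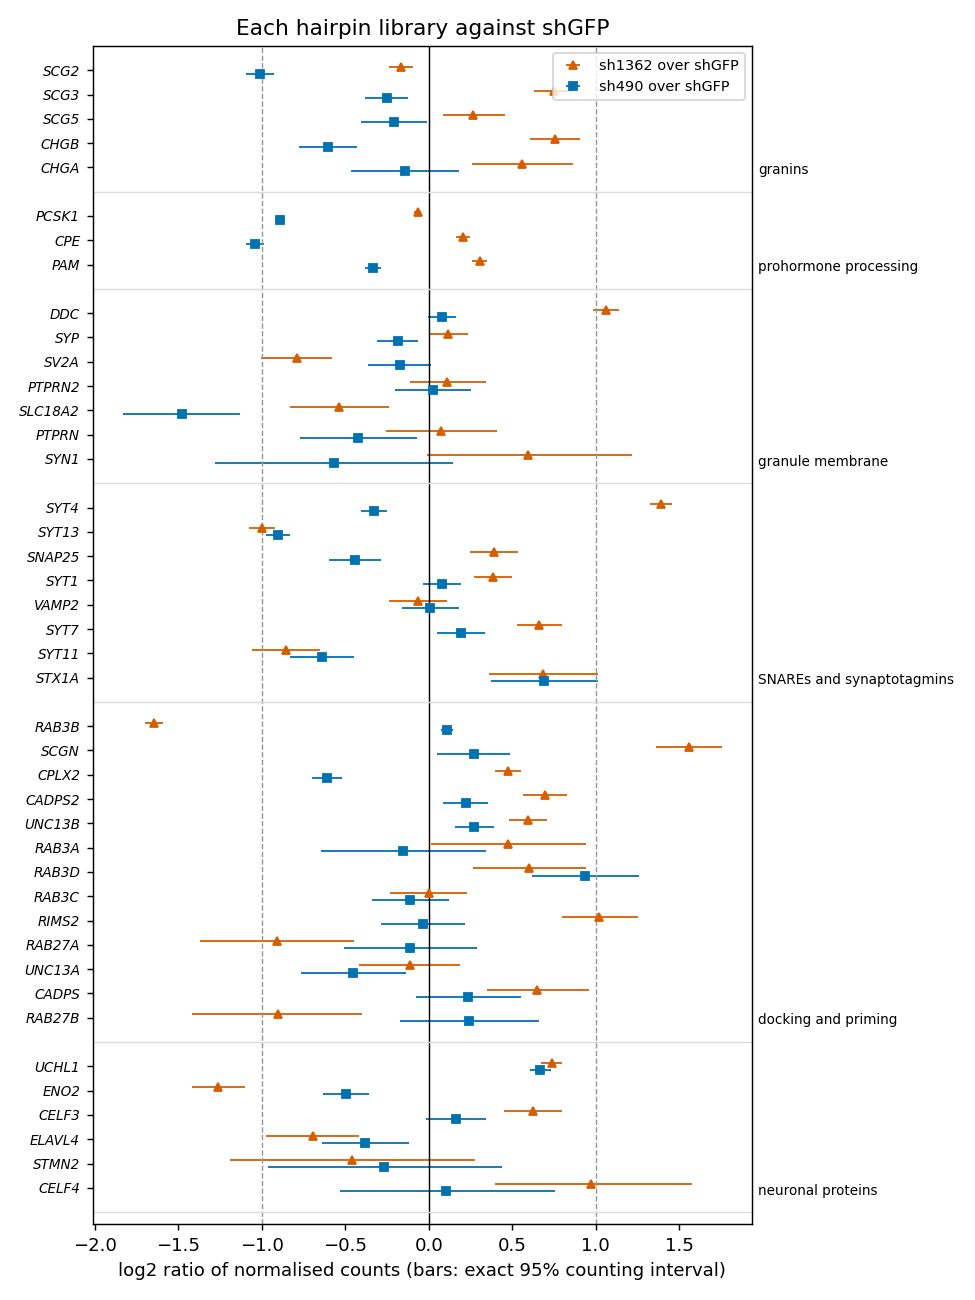
Log2 ratio of normalised counts of sh1362 over shGFP and of sh490 over shGFP for the 42 members of 5 CPM or more, grouped by role, with exact 95% counting intervals and dashed lines at 2-fold. SCGN and SYT4 lie farthest right and RAB3B farthest left with sh1362, at log2 folds of 1.55, 1.39 and -1.64. With sh490, SLC18A2 lies farthest left at -1.46. All 5 granins and 3 processing enzymes drawn lie left of 0 with sh490, among the 26 of the 42 members that do.

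Granins are the acidic proteins of the granule core. Of the 5 with a mean of 5 CPM or more, 5 lay below shGFP in sh490 and 4 above it in sh1362. In comparison, 26 of the 42 members and 5487 of all 11635 genes lay below shGFP in sh490. Above shGFP in sh1362 were 27 of the members and 5951 of all genes. The most abundant granin was SCG2, secretogranin II, the precursor of the peptide secretoneurin, with 684 TPM in sh1362 and 417 TPM in sh490, against 828 TPM in shGFP. The unscaled counts, from libraries of unequal depth, were 3651 counts in sh1362 and 2187 counts in sh490, against 2727 counts in shGFP. The low library was sh490, at 0.497 (0.469 to 0.526) of shGFP, with sh1362 at 0.891 (0.848 to 0.937). SCG3, which tethers chromogranin A to the granule membrane, had 328 TPM in sh1362 and 179 TPM in sh490, against 211 TPM in shGFP. CHGB, chromogranin B, had 145 TPM in sh1362 and 62.04 TPM in sh490, against 92.9 TPM in shGFP. For both genes sh1362 was the highest library and sh490 the lowest, with shGFP between them. CHGA, chromogranin A, had 48.03 TPM in sh1362 and 32.3 TPM in sh490, against 35.2 TPM in shGFP, a level below that of SCG2 in every library. SCG5, the chaperone of the convertase PC2, had 146 TPM in sh1362 and 115 TPM in sh490, against 131 TPM in shGFP, in the same order of libraries as CHGA. PCSK1N, whose product proSAAS inhibits PC1/3, had 1 count in sh1362 and 8 counts in sh490, against 7 counts in shGFP. Scaled to depth, sh1362 was low, at 0.0951 (0.00211 to 0.7401) of shGFP, on 1 count, while the interval of sh490, at 0.708 (0.224 to 2.29), included 1.

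The processing enzymes PCSK1, CPE and PAM were among the most abundant members, and all 3 were lower in sh490 than in either other library. PCSK1 encodes PC1/3, which cuts prohormones at paired basic residues (ENSG00000175426.11, GRCh38 chromosome 5, 96390333 to 96434143, minus strand). It had 53551 counts in sh1362 and 32536 counts in sh490, against 37310 counts in shGFP, or 7292 CPM in sh1362 and 4122 CPM in sh490, against 7634 CPM in shGFP. The sh1362 and shGFP libraries were close together, and sh490 lay at 0.5399 (0.532 to 0.548) of shGFP. CPE, carboxypeptidase E, trims the basic residues left after the cut (ENSG00000109472.14, chromosome 4, 165361194 to 165498547, plus strand). It had 1621 CPM in sh1362 and 684 CPM in sh490, against 1405 CPM in shGFP. Again sh490 was the low library, at 0.487 (0.4695 to 0.504) of shGFP. PAM, which amidates peptide ends, had 1565 CPM in sh1362 and 1006 CPM in sh490, against 1268 CPM in shGFP. PCSK2, encoding the convertase PC2, had 11 counts in sh1362 and 13 counts in sh490, against 19 counts in shGFP. Both hairpin libraries lay below shGFP, sh1362 at 0.385 (0.166 to 0.852) and sh490 at 0.424 (0.192 to 0.904), on these few counts. PC2 transcripts were scarce beside those of PC1/3, with a mean of 1.26 TPM over the libraries for PCSK2 and 4418 TPM for PCSK1.

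Genes of the granule membrane and of amine handling varied in different ways. SLC18A2, the vesicular monoamine transporter VMAT2, had 195 counts in sh1362 and 109 counts in sh490, against 188 counts in shGFP, or 26.6 CPM in sh1362 and 13.8 CPM in sh490, against 38.5 CPM in shGFP. Both hairpin libraries were below shGFP, sh490 the more so, at 0.359 (0.281 to 0.457). Of its exon bases 56.4% overlap exons of other genes, so its level is uncertain, since reads were counted without regard to strand and reads touching 2 genes were left out. SLC18A1, the transporter VMAT1, had 0 counts in each library, which allows up to 0.404 CPM in sh1362 and 0.385 CPM in sh490, against 0.612 CPM in shGFP. DDC, which makes dopamine and serotonin from their amino acid precursors, had 5513 counts in sh1362 and 2998 counts in sh490, against 1757 counts in shGFP. Scaled, these were 751 CPM in sh1362 and 380 CPM in sh490, against 360 CPM in shGFP. The high library was sh1362, at 2.09 (1.98 to 2.21) times shGFP, while the interval of sh490 included 1. SYP, the vesicle protein synaptophysin, had 142 TPM in sh1362 and 126 TPM in sh490, against 141 TPM in shGFP, a narrow range. PTPRN2, a granule protein of the tyrosine phosphatase family, was as even, with 41.8 TPM in sh1362 and 43.1 TPM in sh490, against 41.8 TPM in shGFP. SV2A, a vesicle glycoprotein, had 34.9 TPM in sh1362 and 58.5 TPM in sh490, against 65.1 TPM in shGFP, with sh1362 lowest. PTPRN, a relative of PTPRN2, had 11.7 TPM in sh1362 and 9.07 TPM in sh490, against 11.98 TPM in shGFP. SYN1, synapsin I, had 10.5 CPM in sh1362 and 4.69 CPM in sh490, against 6.96 CPM in shGFP, and its intervals against shGFP included 1 with both hairpins.

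The 4 members whose printed windows hold the cyclic AMP element did not share 1 pattern. Their ratios to shGFP in sh490 were 0.5399 (0.532 to 0.548) for PCSK1, 0.359 (0.281 to 0.457) for SLC18A2, 0.906 (0.725 to 1.14) for CHGA and 0.674 (0.411 to 1.11) for SYN1. In sh1362 they were 0.955 (0.943 to 0.968) for PCSK1, 0.6903 (0.562 to 0.848) for SLC18A2, 1.47 (1.199 to 1.82) for CHGA and 1.51 (0.995 to 2.33) for SYN1. All point values lay below 1 in sh490, with intervals including 1 for CHGA and SYN1, and on both sides of 1 in sh1362. In sh490, 26 of the 42 members and 5487 of all 11635 genes lay below shGFP. The element was chosen after the values were seen, and its part in these ratios was not tested. Of exon bases, 56.4% in SLC18A2 and 25.4% in SYN1 overlap other genes.

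Among SNARE and synaptotagmin genes, SYT4 had the highest ratio of sh1362 over sh490 of all 42 members. SYT4 encodes an atypical synaptotagmin of dense-core vesicles (ENSG00000132872.12, chromosome 18, 43267892 to 43277535, minus strand). It had 9358 counts in sh1362 and 3064 counts in sh490, against 2377 counts in shGFP, or 1274 CPM in sh1362 and 388 CPM in sh490, against 486 CPM in shGFP. The sh1362 library was high, at 2.62 (2.51 to 2.74) times shGFP, and sh490 somewhat low, at 0.798 (0.756 to 0.842). SYT13, a synaptotagmin without the calcium-binding residues, was low with both hairpins instead. It had 321 CPM in sh1362 and 344 CPM in sh490, against 643 CPM in shGFP, with an edgeR log2 fold of -0.95 ± 0.26 (standard error) that did not pass (adjusted p 0.985, unadjusted 0.0057). SYT11, another atypical member, was likewise low with both, at 51.1 CPM in sh1362 and 59.3 CPM in sh490, against 92.3 CPM in shGFP. The calcium sensors SYT1 and SYT7 were highest in sh1362. SYT1 had 267 CPM in sh1362 and 216 CPM in sh490, against 204 CPM in shGFP. SYT7 had 199 CPM in sh1362 and 144 CPM in sh490, against 126 CPM in shGFP. SYT5 was close to silent, with 8 counts in sh1362 and 2 counts in sh490, against 2 counts in shGFP. Of the SNAREs, SNAP25 had 175 TPM in sh1362 and 107 TPM in sh490, against 144 TPM in shGFP, with shGFP in the middle. VAMP2, synaptobrevin 2 of the vesicle membrane, was even, at 97.97 TPM in sh1362 and 113 TPM in sh490, against 111 TPM in shGFP. STX1A, syntaxin 1A of the plasma membrane, was higher with both hairpins, at 35.9 TPM in sh1362 and 39.5 TPM in sh490, against 24.2 TPM in shGFP. Exon bases shared with other genes made up 12.4% of VAMP2 and 17.9% of STX1A.

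Docking and priming genes differed most widely in sh1362, in both directions. RAB3B, a Rab3 GTPase of secretory vesicles (ENSG00000169213.7, chromosome 1, 51907956 to 51990700, minus strand), had 4270 counts in sh1362 and 15489 counts in sh490, against 8887 counts in shGFP. Scaled, these were 582 CPM in sh1362 and 1962 CPM in sh490, against 1818 CPM in shGFP. The sh1362 library lay far below the others, at 0.3198 (0.308 to 0.332) of shGFP, and sh490 at 1.08 (1.05 to 1.11). RAB3B also had the highest TPM of the Rab3 genes in every library, with 161 TPM in sh1362 and 595 TPM in sh490, against 544 TPM in shGFP. RAB3A had 33.8 TPM in sh1362 and 23.9 TPM in sh490, against 26.3 TPM in shGFP. RAB3C was even, with 19.7 TPM in sh1362 and 19.9 TPM in sh490, against 21.2 TPM in shGFP. RAB3D lay above shGFP with both hairpins, at 27.1 TPM in sh1362 and 37.3 TPM in sh490, against 19.3 TPM in shGFP, though 25.1% of its exon bases overlap other genes. RAB27A and RAB27B, Rabs that link granules to the cell cortex, were low in sh1362. RAB27A had 9.94 CPM in sh1362 and 17.2 CPM in sh490, against 18.6 CPM in shGFP. RAB27B had 8.31 CPM in sh1362 and 18.4 CPM in sh490, against 15.6 CPM in shGFP. Their ratios of sh1362 to shGFP were 0.534 (0.387 to 0.735) and 0.534 (0.375 to 0.758), and in sh490 both intervals included 1.

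The calcium-binding protein gene SCGN, secretagogin, had the highest ratio of sh1362 over shGFP of the 42 members (ENSG00000079689.14, chromosome 6, 25652201 to 25701783, plus strand). It had 1167 counts in sh1362 and 514 counts in sh490, against 264 counts in shGFP, or 159 CPM in sh1362 and 65.1 CPM in sh490, against 54.02 CPM in shGFP. The sh1362 library was high, at 2.94 (2.57 to 3.38) times shGFP, and sh490 slightly so, at 1.21 (1.04 to 1.404). RIMS2, a scaffold of release sites, had 89.7 CPM in sh1362 and 43.1 CPM in sh490, against 44.2 CPM in shGFP. It was high in sh1362 alone, at 2.03 (1.74 to 2.38) times shGFP. CPLX2, complexin 2, a regulator of SNARE-driven fusion, had 547 CPM in sh1362 and 258 CPM in sh490, against 394 CPM in shGFP, with sh1362 above and sh490 below shGFP. The priming factor genes were closer together. UNC13B had 282 CPM in sh1362 and 226 CPM in sh490, against 187 CPM in shGFP. CADPS2 had 222 CPM in sh1362 and 160 CPM in sh490, against 138 CPM in shGFP. CADPS had 42.1 CPM in sh1362 and 31.5 CPM in sh490, against 26.8 CPM in shGFP. These were lowest in shGFP and highest in sh1362, whereas UNC13A was lowest in sh490, with 30.2 CPM in sh1362 and 23.9 CPM in sh490, against 32.7 CPM in shGFP.

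Neuronal protein genes were not uniform. UCHL1, a ubiquitin hydrolase abundant in neurons and neuroendocrine cells, had 1553 TPM in sh1362 and 1620 TPM in sh490, against 1005 TPM in shGFP. It was higher in both hairpin libraries, by 1.67 (1.595 to 1.74) times in sh1362 and 1.59 (1.52 to 1.66) times in sh490, and did not pass the edgeR test (log2 fold 0.70 ± 0.27, adjusted p 0.985). ENO2, neuron-specific enolase, had 518 counts in sh1362 and 945 counts in sh490, against 825 counts in shGFP, or 70.5 CPM in sh1362 and 120 CPM in sh490, against 169 CPM in shGFP. Both hairpin libraries were below shGFP, sh1362 at 0.418 (0.374 to 0.467) and sh490 at 0.709 (0.645 to 0.7796). ENO2 was thus opposite to UCHL1, although both serve as neuroendocrine markers. The RNA-binding protein genes also split. CELF3 was lowest in shGFP, with 66.1 TPM in sh1362 and 52.5 TPM in sh490, against 46.3 TPM in shGFP. ELAVL4, also known as HuD, was highest there, with 11.97 TPM in sh1362 and 16.3 TPM in sh490, against 20.9 TPM in shGFP. CELF4 had 13.6 CPM in sh1362 and 7.47 CPM in sh490, against 6.96 CPM in shGFP. The axonal growth genes were low in all libraries. STMN2 had 4.77 CPM in sh1362 and 5.45 CPM in sh490, against 6.55 CPM in shGFP. GAP43 had 14 counts in sh1362 and 8 counts in sh490, against 7 counts in shGFP. ELAVL3, a neuronal relative of ELAVL4, was as scarce, with 29 counts in sh1362 and 17 counts in sh490, against 15 counts in shGFP.

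**Figure D3:**
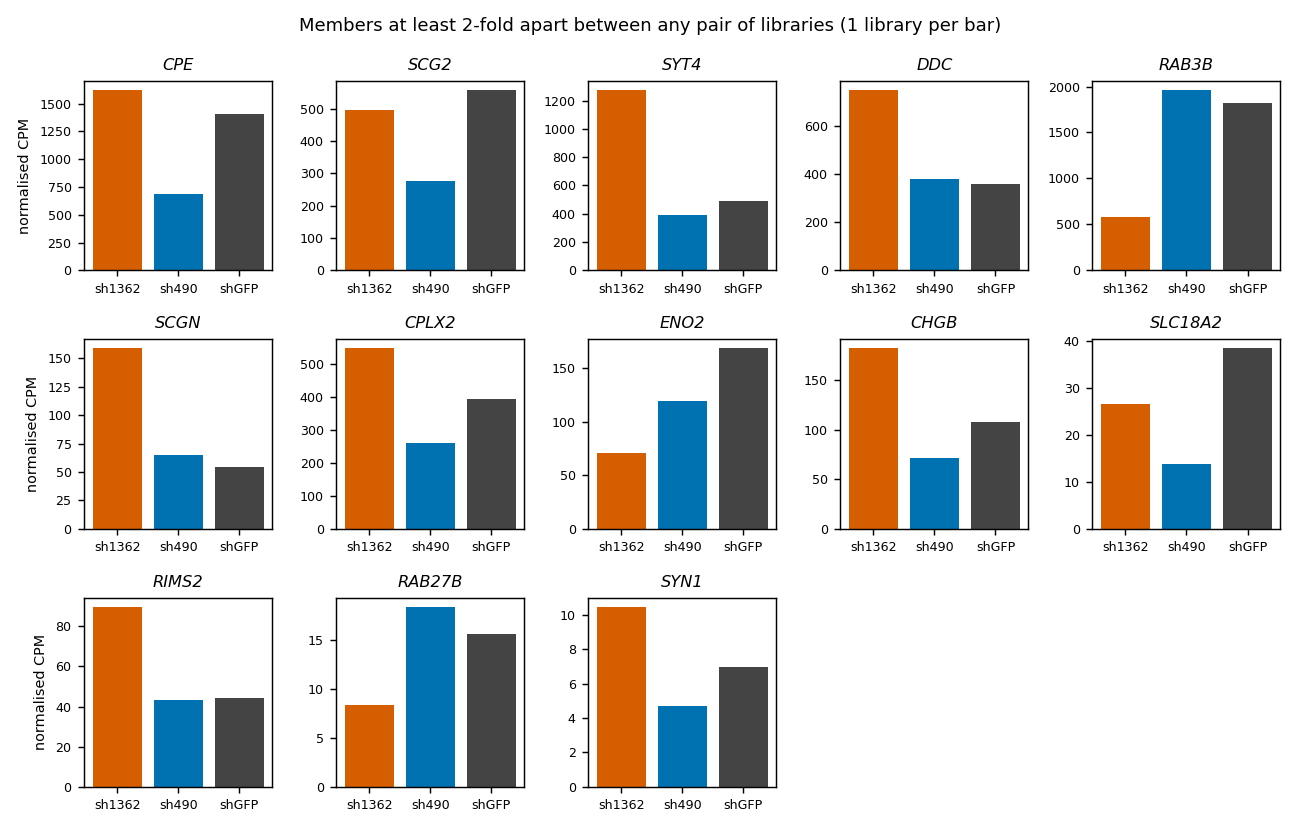
Normalised CPM in sh1362, sh490 and shGFP, 1 bar per library on a linear axis from 0 in each panel, for the 13 members at least 2-fold apart between any of the libraries. In SYT4, DDC, SCGN and RIMS2 the sh1362 bar stands above the others, in RAB3B and RAB27B it stands below them, and in CPE, SCG2 and SLC18A2 the sh490 bar is the lowest.

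The hairpin libraries were also compared with each other, the contrast that does not use shGFP. Of the 42 members, 9 (21.4%) lay at least 2-fold apart, where 5.9% of all genes did. Higher in sh1362 than in sh490 were 7 (16.7%) and lower were 2 (4.76%), where 2.03% and 3.88% of all genes were. The higher members were SYT4, CHGB, SCGN, CPE, SYN1, CPLX2 and RIMS2, with log2 differences of 1.71, 1.35, 1.28, 1.25, 1.11, 1.08 and 1.05. The lower members were RAB3B at -1.75 and RAB27B at -1.12. Just under the threshold lay SCG3 at 1.00, which is 0.999 unrounded, and DDC at 0.98. Members lay a median of 1.53-fold apart in either direction, beside 1.22-fold over all genes, and their median log2 difference was 0.47, beside -0.02 over all genes. These counts are a description of 2 libraries, with no replicate of either hairpin, for a set chosen with earlier results of these data known.

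**Figure D4:**
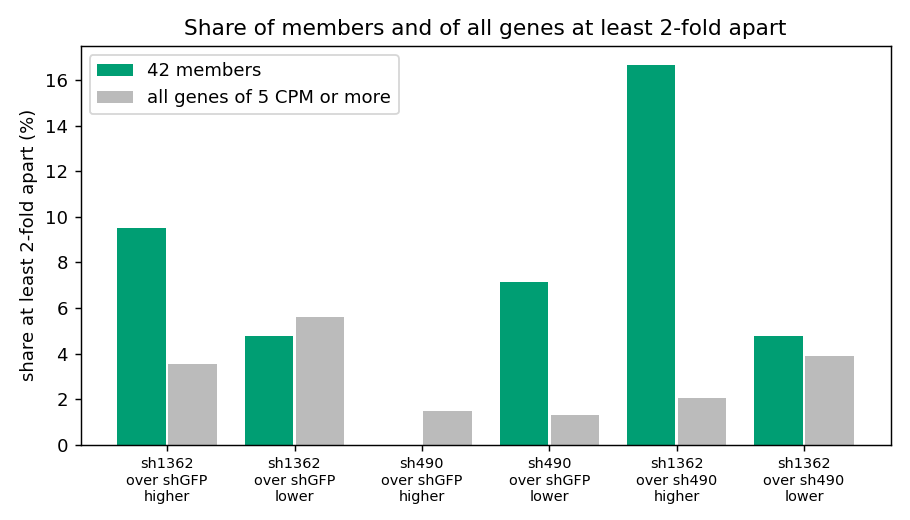
Share, in percent, of the 42 members (left bars) and of all 11635 genes of 5 CPM or more (right bars) that were at least 2-fold higher or lower, for each pair of libraries. The widest gap is for genes higher in sh1362 than in sh490, with 16.7% of the members and 2.03% of all genes. The members were chosen with earlier results of these data known.

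Of the 42 members, 30 had a value above 0 in this contrast, as did 5643 of all 11635 genes. By role, the 5 granins were all higher in sh1362 than in sh490, with a median log2 difference of 0.84, and so were the 3 processing enzymes, with a median of 0.82. Of the 7 granule membrane and amine genes 6 were higher, with a median of 0.49. SNARE and synaptotagmin genes divided into 4 higher and 4 lower, with a median of 0.15, and neuronal protein genes into 3 and 3, with a median of -0.06. Docking and priming genes were 9 higher and 4 lower, with a median of 0.33 and the widest range of the roles, -1.75 to 1.28. The counting intervals of SYT4, CHGB, SCGN, CPE and CPLX2, higher in sh1362, and of RAB3B, lower, lay wholly past 2-fold. Such intervals are narrower for genes with more counts, and the like share of all genes was not computed.

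**Figure D5:**
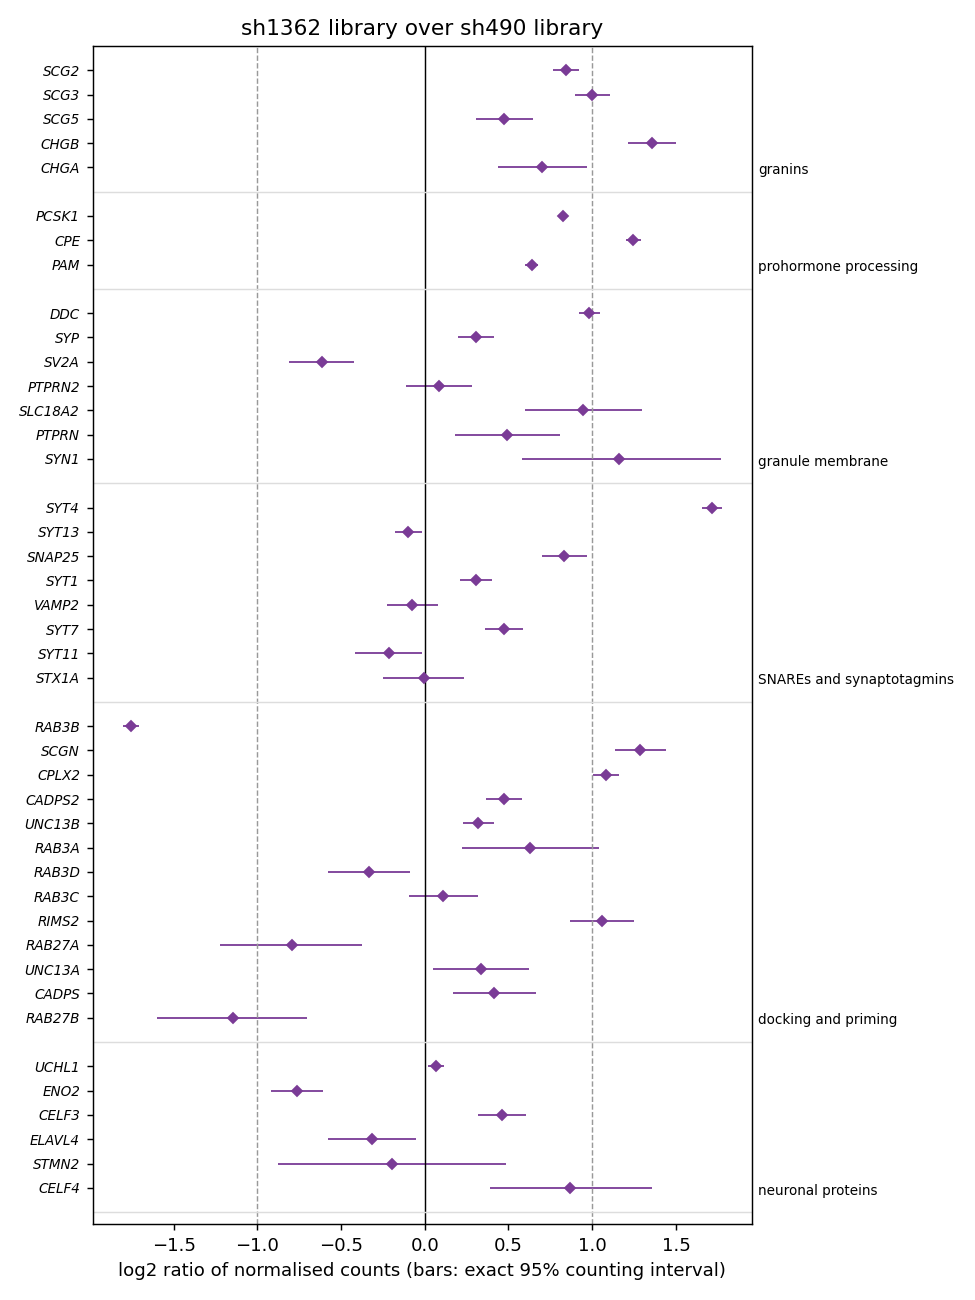
Log2 ratio of normalised counts of sh1362 over sh490 for the 42 members of 5 CPM or more, grouped by role, with exact 95% counting intervals and dashed lines at 2-fold. The granins and processing enzymes lie right of 0, between 0.47 and 1.35, while RAB3B lies at -1.75.

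Other genes of the same processes, 182 genes in 5 lists, gave 0 genes past the edgeR test in either direction among the 149 tested, with 7 above and 3 below shGFP at an unadjusted p under 0.05, where 389 and 295 of all 15708 genes were. Of the 129 with a mean of 5 CPM or more, 8 (6.2%) were higher and 13 (10.1%) lower in sh1362 than in shGFP by 2-fold or more, where 3.56% and 5.6% of all genes were. In sh490, 3 (2.33%) were higher and 0 lower than in shGFP by that size, where 1.5% and 1.31% of all genes were. Between the hairpins, 7 (5.43%) were higher and 10 (7.75%) lower in sh1362 than in sh490, where 2.03% and 3.88% of all genes were, and the median log2 difference was 0.11, beside -0.02 over all genes.

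Among 52 other release machinery genes, VAMP3, a SNARE of recycling endosomes, had 142 CPM in sh1362 and 135 CPM in sh490, against 51.97 CPM in shGFP. It was high with both hairpins, at an edgeR log2 fold of 1.41 ± 0.29 (standard error) that did not pass (adjusted p 0.972; 0.0104 with no filter on low counts and 0.547 to 0.999 in the other alternatives). SYTL2, a Rab27-binding protein, was also above shGFP with both, at 35.5 CPM in sh1362 and 48.01 CPM in sh490, against 23.7 CPM in shGFP. SYT9, a calcium sensor, had 2.45 CPM in sh1362 and 4.81 CPM in sh490, against 8.39 CPM in shGFP. Of 42 genes for granule formation and acidification, 27 of the 36 measured lay above shGFP in sh1362 and 23 in sh490, with median log2 folds of 0.18 and 0.12, where 5951 and 6148 of all 11635 genes lay above shGFP. CYB561, which carries electrons across the granule membrane, had 134 CPM in sh1362 and 91.1 CPM in sh490, against 62.2 CPM in shGFP. ATP6V0D1, a proton pump subunit, had 120 CPM in sh1362 and 94.4 CPM in sh490, against 62.6 CPM in shGFP. SORL1, a sorting receptor, went the other way, with 50.7 CPM in sh1362 and 83.2 CPM in sh490, against 133 CPM in shGFP.

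Of 24 other processing enzyme genes, CPD, a carboxypeptidase of the trans-Golgi related to CPE, had 190 CPM in sh1362 and 640 CPM in sh490, against 640 CPM in shGFP. It was low in sh1362, where CPE was not. ERO1A, which forms disulfide bonds, was also lowest in sh1362, with 41.3 CPM in sh1362 and 95.3 CPM in sh490, against 118 CPM in shGFP. The lysosomal protease gene CTSD had 24.7 CPM in sh1362 and 21.8 CPM in sh490, against 15.8 CPM in shGFP. Among 44 other neuronal genes, the intermediate filament genes NEFM and INA were high in sh1362 alone. NEFM had 82.7 CPM in sh1362 and 25.8 CPM in sh490, against 25.2 CPM in shGFP. INA had 155 CPM in sh1362 and 54.1 CPM in sh490, against 48.9 CPM in shGFP. The neuronal splicing factor gene SRRM4 was lowest in shGFP, with 7.22 CPM in sh1362 and 5.07 CPM in sh490, against 2.87 CPM in shGFP.

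Of 20 neuroendocrine regulator genes, INSM1, a zinc-finger factor of neuroendocrine cells, had 370 CPM in sh1362 and 200 CPM in sh490, against 108 CPM in shGFP. It was higher with both hairpins, at an edgeR log2 fold of 1.40 ± 0.41 (standard error) that did not pass (adjusted p 0.985; 0.00699 with no filter on low counts and 0.983 to 1.00 in the other alternatives). NEUROD4, a neurogenic factor, had 6.95 CPM in sh1362 and 8.87 CPM in sh490, against 4.09 CPM in shGFP. SOX11, another neurogenic factor, was highest in shGFP, with 33.2 CPM in sh1362 and 50.3 CPM in sh490, against 70.6 CPM in shGFP. REST was named after its values were seen. This repressor of the RE1 element was low in sh1362, with 9.81 CPM in sh1362 and 23.2 CPM in sh490, against 20.5 CPM in shGFP.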

How the data were processed

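RNA of 3 NCI-H209 libraries was sequenced. The authors deposited whole-number counts of reads for each gene, with exon lengths in bases. Per the submitters' processing notes, FastQC 0.11.8, STAR 2.6.1c and GRCh38 were used. Per the file headers, featureCounts 1.6.0 assigned reads to GENCODE 32 exons with default, unstranded settings. The members and lists were chosen with earlier results of these data known, and the promoter motifs after the values were seen. Of 60609 genes, 60295 were matched to a symbol. CPM used TMM-scaled library sizes, and TPM used counts over exon length. The main test was edgeR 4.0.16 (R 4.3.3), quasi-likelihood, two-sided, with TMM, filterByExpr and Benjamini-Hochberg adjustment over 15708 genes. Standard errors were derived from it, as the absolute log2 fold divided by the square root of the F statistic. DESeq2 1.42.0 and limma 3.58.1 (voom), other scalings, filters and prior counts were alternatives. Single libraries were compared as log2 CPM, adding 2 as the prior count, at a mean of 5 CPM or more, and called at 2-fold. Ratio intervals were exact conditional binomial at 95%, and a count of 0 was taken to allow 3 counts. Values per library were to be given for members at least 2-fold apart in any contrast, the 12 highest by TPM and those under 5 CPM, and for the 3 genes of each list with the largest edgeR log2 fold in size at a mean of 5 CPM or more. Other members were added to complete each role. Of the members, 27 share no exon base with another gene, 16 share under 10% and 5 share more.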

Additional observations from a re-analysis of the deposited data

How the results depend on the processing

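No member passed the test under the 7 alternatives run for it (DESeq2 size factors, library totals, scaling without globin and mitochondrial genes, no filter on low counts, a mean of 5 CPM or more, DESeq2 and limma-voom), and the lowest adjusted p of a member ranged from 0.150 (SYT13, with no filter) to 1.00 (DESeq2). Over all genes, edgeR called 0 higher and 4 lower. No filter gave 22 higher and 36 lower, DESeq2 gave 1 higher and limma-voom 2 lower. Without globin and mitochondrial genes 1 was lower, as these genes were not in that test, and with a mean of 5 CPM or more 1 was lower. For the other counts the cause was not tested. Leaving out 1 hairpin moved the members' median log2 fold between -0.20 and 0.32. At a mean of 20 CPM or more, 1 member was lower in sh1362 than in sh490, since RAB27B then fell outside the filter. The other counts of members at least 2-fold apart stayed within 1.5 times of those reported under the scalings, prior counts and filters tried. Members near 2-fold crossed it, however. SCG2 in sh490 against shGFP fell short under library totals. SYT13 in sh1362 against shGFP passed under DESeq2 size factors and library totals. SCG3 between the hairpins passed under DESeq2 size factors, without globin and mitochondrial genes and with a prior count of 0.5. Values near 0 changed sign: RAB3C in sh1362 against shGFP to 0.000 without globin and mitochondrial genes, VAMP2 in sh490 against shGFP to -0.004 under DESeq2 size factors and, for both hairpins, PAM to -0.004 under DESeq2 and -0.015 under limma-voom. Under limma-voom so did CPLX2 at -0.070, SNAP25 at -0.029, SYN1 at -0.009 and GAP43 at -0.088, and the members' median, at -0.028. PCSK1 moved past its counting interval under library totals, to -0.867 in sh490 against shGFP and 0.789 between the hairpins. No paired analysis was possible because there was 1 shGFP library and 1 library of each hairpin. The 6 members under 5 CPM had few counts or none.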
